A study of Mus musculus with 180 samples.

Results

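The RNA of 33 BXD embryonic stem cell lines was compared with that of the same lines after their transition to epiblast-like cells (EpiLCs). BXD strains are recombinant inbred mouse strains descended from a cross of C57BL/6J (B6) with DBA/2J (D2), so each line carries its own mosaic of both parental genomes. Members were chosen by assay and line: every BXD line with an RNA library in both states entered, paired by its line number, which gave 66 libraries of the 180 samples in the series. Each line was represented by 1 embryonic stem cell (ESC) library, labelled naive, and 1 EpiLC library, labelled as ESCs brought to the formative state. No genetic change or drug is named for any of these lines, and the labels do not give their sex. The protocols refer to published methods for naive culture and for the transition, and the hours that the RNA cultures spent in EpiLC medium are not stated. A line was not repeated within a state, so the spread below is between lines, which differ in genotype as well as in culture. B6 and D2, with 3 ESC lines each (B41, B44 and B51; D29, D55 and DAC203) and both states of every line, served as the parental comparison.

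Naive ESCs resemble the inner cells of the blastocyst. LIF, acting through its receptor and STAT3, and a network of transcription factors that includes Klf4, Esrrb, Tfcp2l1, Tbx3 and Nanog hold them there. When FGF signalling through ERK is allowed to act, this network is shut down while Pou5f1 stays on, and the cells pass to a formative state that resembles the epiblast after implantation, with Pou3f1, Otx2, Fgf5 and the de novo DNA methyltransferases switched on.

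Values are normalized levels per gene from 1 deposited table for each state. Every library was rescaled to a total of 1000000 over the 11755 genes present in both tables. A change is the mean over lines of the difference in log2(level + 1), EpiLC minus ESC. The tables were normalized apart, so the state and the table cannot be told apart, and the depth is unknown. The composition of the libraries differed between the tables: Gm42418, a locus that overlaps ribosomal RNA sequence, ranged over 3588 to 112273 with a median of 88033 in ESC libraries and over 2994 to 15456 with a median of 8583 in EpiLC libraries, with BXD98 lowest among ESCs. Its part in the scaling was measured: leaving Gm42418 and Lars2 out of the total moved the median change over all genes from 0.11 to -0.01, a shift of -0.12.

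Some libraries stood apart. In EpiLC libraries, deviations from the mean of the state followed transcript length, with slopes from -0.33 log2 per doubling of length (BXD71) to 0.36 (BXD64), against -0.11 to 0.0671 in ESC libraries. The main axis of variation among EpiLC libraries held 40.7% of the variance, and its gene weights correlated with log2 length at 0.55 in absolute value across genes, which are not independent replicates. For the ESC axis, with 20.0% of the variance, that value was 0.0638. Each line's change correlated with the mean change of the other lines at 0.701 (BXD161) to 0.935 (BXD66), with a median of 0.881. Over all tested genes, the EpiLC RNA of 22 of 33 lines was closest to the ESC RNA of the same line. That was by Pearson's correlation, and by Spearman's 15 of 33 matched. Own-line Pearson correlations ran from -0.0428 (BXD161) to 0.507 (BXD99), and 28 of 33 lines matched once the length trend was removed. Before that removal, the lines that did not match were BXD45, BXD48, BXD49, BXD62, BXD64, BXD65, BXD69, BXD81, BXD95, BXD124 and BXD161. Of these, BXD48, BXD64, BXD65, BXD95 and BXD161 are the 5 lines left out in repeats below. With the trend removed, BXD62, BXD64, BXD69, BXD124 and BXD161 did not match. A further comparison used 105 genes that differed at least 4-fold between the B6 and D2 means in both states. There 33 of 33 lines matched their own ESC library, all of the lines named above included. Own-line correlations ran from 0.811 to 0.926, with at most 0.602 for any other pair of lines. The Y-linked gene Ddx3y was above 10 in both states in 25 lines and below 10 in both in 8 lines, with no line that differed between states.

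**Figure D1:**
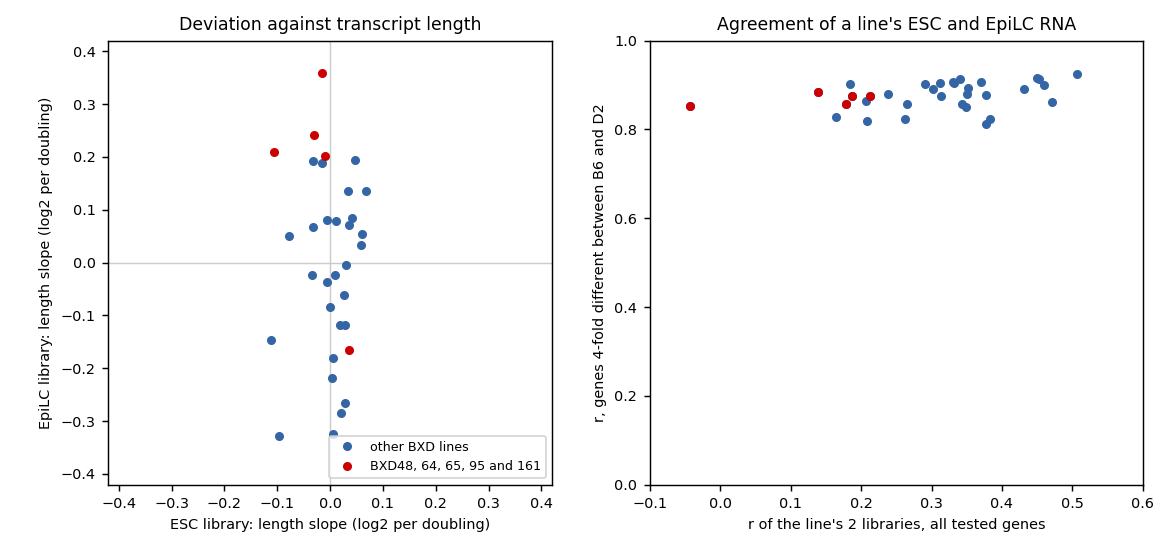
Left, slope of each line's deviation from the mean of its state on log2 transcript length, ESC library on the x axis and EpiLC library on the y axis, in log2 per doubling. Right, correlation between a line's ESC and EpiLC libraries over all tested genes (x axis) and over genes that differ 4-fold between B6 and D2 (y axis), 1 point per line. The EpiLC slopes cover the whole axis while the ESC slopes stay near 0, and on the right panel's y axis the 5 lines in red lie within the range of the others.

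The transition moved a large part of the measured transcriptome. Of 11754 genes with a mean level of at least 0.5, 1348 were at least 2-fold higher in EpiLCs (11.5%) and 1254 at least 2-fold lower (10.7%) at an adjusted p under 0.05 (limma with the line as a block, Benjamini-Hochberg). By the adjusted p alone, 47% were higher and 36.5% lower. The balance of the directions depended on the scaling: 51.8% of the 2-fold calls were higher in EpiLCs, and 40.7% when Gm42418 and Lars2 were left out of the totals (1047 higher and 1527 lower). Without BXD48, BXD64, BXD65, BXD95 and BXD161 the 2-fold counts were 1426 and 1372. Without BXD62, BXD64, BXD74, BXD84, BXD98 and BXD161, which stood apart in their change, in fibroblast RNA or in Gm42418, they were 1486 and 1404. The ESC and EpiLC levels of all 33 lines did not overlap for 639 genes that were higher in EpiLCs (5.44%) and 364 that were lower (3.1%). The change had the same direction in all 33 lines for 1824 genes that were higher (15.5%) and 1062 that were lower (9.04%). In single lines, the number of genes that differed at least 2-fold between states ran from 2048 (BXD84) to 4988 (BXD45), with a median of 3286. The length slopes of these 2 EpiLC libraries were 0.193 and -0.324 log2 per doubling. BXD64 and BXD71, with the extreme slopes of 0.36 and -0.33, had 2707 and 4763 such genes. The part of the length trend in these counts was not tested.

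The 12 largest rises that went the same way in all 33 lines were led by Pou3f1 (ENSMUSG00000090125, chr4:124656807-124660655 in GRCm38), a POU transcription factor of the epiblast. Its level ran over 0.862 to 4.96 with a median of 2.57 in ESCs and over 81.7 to 329 with a median of 186 in EpiLCs. Every EpiLC value lay far above every ESC value, with a log2 change of 5.64 (SE 0.095, adjusted p = 2.7e-34, limma). Pim2, a serine/threonine kinase, ran from 6.997 to 24.5 in ESCs and from 358 to 1302 in EpiLCs (log2 change 5.47, SE 0.086, adjusted p = 1.1e-34). The other 10 were the protocadherin Pcdh1 (5.27), the epithelial splicing regulator Esrp1 (5.20), the zinc finger factor Wt1 (4.37), Myrf (4.003), the semaphorin Sema6a (3.93), the ectonucleotidase Enpp3 (3.89), Sox3 (3.89), the ERK phosphatase Dusp6 (3.87), Crmp1 (3.87) and 1110002L01Rik (3.77). None of these 12 overlapped between states.

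The largest falls that went the same way in all 33 lines were mostly of 2 kinds. Counted here as naive genes were 5. These were the transcription factors Tfcp2l1 (-7.07), Tbx3 (-6.53) and Klf4 (-5.59), the orphan nuclear receptor Esrrb (-5.17) and the junctional adhesion molecule Jam2 (-6.84). Genes of the extracellular matrix and of contractile mesenchymal cells made up 5: the collagen chain Col1a1 (-5.86), the lysyl oxidase Lox (-5.26), the proteoglycan Bgn (-5.00), the actin Acta2 (-4.95) and the tenascin Tnc (-4.94). A2m, a protease inhibitor, also fell (-5.01). The summed level of 20 fibroblast markers ran from 829.5 (BXD161) to 10000.3 (BXD90) in ESC libraries, with a median of 2144. In EpiLC libraries, where 18 of the 20 were listed, it ran from 61.8 to 1265 (BXD62), with a median of 148. Over the 33 ESC libraries, these 5 matrix and contractile genes followed this sum, their own value left out, with Spearman's rho from 0.90 (Acta2) to 0.98 (Bgn). Pearson's r for them was 0.930 to 0.990, and 0.900 to 0.985 without the 2 lines farthest from the median. Each of these had a permutation p of 1e-05, the smallest that 100000 shuffles can give, and an adjusted p of 2.3e-05 over the 16 genes examined. Pearson's r of the 5 naive genes ran from -0.132 to 0.163 with permutation p from 0.36 to 0.99, and their rho lay between -0.12 (Esrrb, adjusted permutation p = 0.61) and 0.15 (Tfcp2l1, adjusted permutation p = 0.53), and for A2m it was -0.31 (adjusted permutation p = 0.13). Without the 2 lines farthest from the median, r ran from 0.0723 (Klf4) to 0.301 (Tfcp2l1) for the naive genes. Over EpiLC libraries Klf4 and A2m correlated by rank with the fibroblast sum, with rho 0.47 (adjusted permutation p = 0.0099) and 0.50 (adjusted permutation p = 0.0058) and Pearson's r of 0.316 and 0.368, or 0.221 and 0.384 without 2 lines. The other 4 naive genes ran from -0.33 (Jam2, adjusted permutation p = 0.075) to 0.18 (Tfcp2l1, adjusted permutation p = 0.34) there. Lum and Postn, also fibroblast markers, were listed in the ESC table only. The part of fibroblast RNA in these falls was not tested. In this bulk RNA, fewer cells of a type and less RNA per cell cannot be told apart.

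Naive pluripotency genes fell as a group: of 27 tested members of a list of 30, 22 were at least 2-fold lower in EpiLCs, 2 at least 2-fold higher, and the median change was -2.85 against 0.11 over all tested genes. Both counts were the same without the 5 lines and without the 6. Over all tested genes 10.7% were 2-fold lower and 11.5% 2-fold higher, and the 2 rises lie below the latter share. Tfcp2l1 (ENSMUSG00000026380, chr1:118627945-118685168 in GRCm38) ran over 768 to 1862 with a median of 1249 in ESCs and 2.28 to 35.1 with a median of 7.58 in EpiLCs (SE 0.15, adjusted p = 1.8e-30). The ranges were far apart, and the largest EpiLC remainder was in BXD125. Nanog, at chr6:122707489-122714633, ran over 649.6 to 1144 with a median of 906 and then 8.43 to 111 with a median of 34.7 (log2 change -4.74, SE 0.12, adjusted p = 1.5e-28). Its highest EpiLC level was in BXD74, which also kept the most Jam2, Klf4, Sox2 and Zfp42 RNA. Zfp42, a naive marker at chr8:43295063-43306980, fell much less: 76.6 to 138 with a median of 99.7 in ESCs, and 20.9 to 82.5 with a median of 45.1 in EpiLCs (log2 change -1.13, SE 0.086, adjusted p = 1.4e-14). It was lower in all 33 lines although the ranges overlapped. Nr5a2, another nuclear receptor, fell by 3.88 on the log2 scale. The 2 members that rose 2-fold were Gbx2 (2.34), a homeobox gene that is also an epiblast gene, and Dppa4 (1.403). Dppa3, a maternal-effect gene of naive and germ cells, went from a median of 14.1 to 11.9 (log2 change -0.31, SE 0.21, adjusted p = 0.18), lower in 19 lines and higher in 14. Prdm14 (median 50.1) and Tcl1 (median 78.5), both naive genes, were listed in the ESC table only, and their change was not tested.

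**Figure D2:**
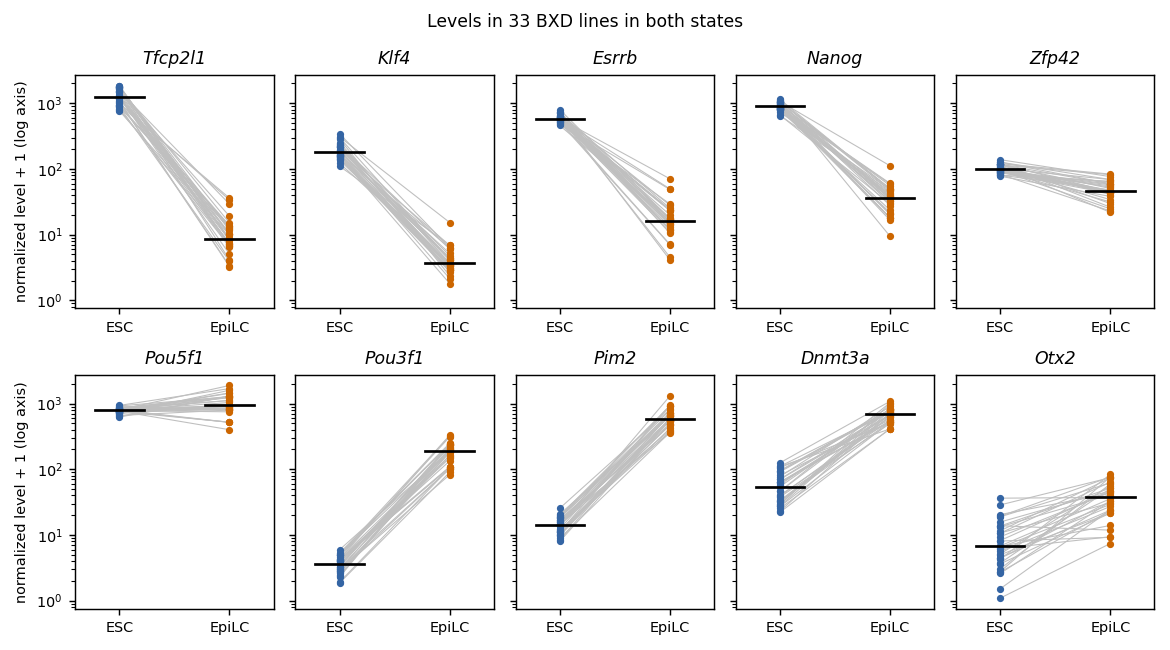
Normalized level + 1 on a log axis for 10 genes in the ESC (blue) and EpiLC (orange) library of each of 33 BXD lines, with grey lines joining a line's 2 libraries and black bars at the medians. Tfcp2l1, Klf4, Esrrb and Nanog drop without overlap, Zfp42 drops by less, Pou5f1 spreads around its ESC level, and Pou3f1, Pim2 and Dnmt3a rise without overlap.

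The promoters of a few of these genes are printed to show what short binding words lie near the start sites of genes that moved in opposite directions. Sequences are from RefSeq (build GRCm38.p6), 250 bases before to 50 after a start, written 5′ to 3′ on the gene's strand, with matches in capitals. The words searched, on both strands, were STAT (TTCCNNGAA), ESRRB and NR5A2 (AAGGTCA), KLF (GGGNGTGG), TFCP2L1 (CCAG, 6 bases, CCAG), octamer (ATGCAAAT), OTX (TAATCC), TCF and LEF (ATCAAAG), ETS (CCGGAAG) and E-box (CACGTG). The Tfcp2l1 window (chr1:118627695-118627994, plus strand) held KLF matches, Nanog (chr6:122707239-122707538, plus strand) KLF and OTX matches, Zfp42 (chr8:43306960-43307259, minus strand) an octamer and a KLF match, and Pim2 (chrX:7878056-7878355, plus strand) octamer matches on either strand and a TCF and LEF match.
Tfcp2l1: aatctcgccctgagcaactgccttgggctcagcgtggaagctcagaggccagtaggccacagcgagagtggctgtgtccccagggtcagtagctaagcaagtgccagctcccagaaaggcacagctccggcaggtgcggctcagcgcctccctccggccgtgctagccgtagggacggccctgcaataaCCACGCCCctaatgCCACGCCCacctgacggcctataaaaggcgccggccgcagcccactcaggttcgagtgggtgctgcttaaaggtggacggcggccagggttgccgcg
Nanog: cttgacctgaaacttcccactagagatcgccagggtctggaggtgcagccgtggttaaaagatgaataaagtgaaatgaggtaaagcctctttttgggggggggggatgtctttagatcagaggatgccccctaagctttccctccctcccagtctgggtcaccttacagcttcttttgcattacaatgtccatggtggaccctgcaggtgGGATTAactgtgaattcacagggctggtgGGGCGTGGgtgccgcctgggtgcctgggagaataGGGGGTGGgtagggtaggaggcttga
Zfp42: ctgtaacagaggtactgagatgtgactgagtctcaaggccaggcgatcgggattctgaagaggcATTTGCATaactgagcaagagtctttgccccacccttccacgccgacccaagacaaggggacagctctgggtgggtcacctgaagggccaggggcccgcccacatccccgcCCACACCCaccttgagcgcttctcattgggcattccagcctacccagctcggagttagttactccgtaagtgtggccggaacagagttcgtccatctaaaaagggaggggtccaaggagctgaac
Pim2: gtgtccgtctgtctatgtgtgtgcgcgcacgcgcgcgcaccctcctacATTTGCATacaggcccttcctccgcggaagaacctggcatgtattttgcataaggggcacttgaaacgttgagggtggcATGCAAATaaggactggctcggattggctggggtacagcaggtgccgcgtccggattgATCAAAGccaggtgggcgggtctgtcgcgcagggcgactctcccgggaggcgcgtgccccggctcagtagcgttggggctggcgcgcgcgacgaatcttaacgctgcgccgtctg

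A promoter was matched by symbol for 8928 tested genes, 991 of them 2-fold higher and 945 2-fold lower in EpiLCs, with the first listed entry used for a gene with several. The octamer stood in 1.82% of rising, 1.27% of falling and 1.45% of all promoters. Values for KLF were 24.8%, 25.9% and 23.7%, and for STAT 3.83%, 4.13% and 4.39%. The ETS word showed the widest gap of the 9, with 21.3% of rising, 7.72% of falling and 19.9% of all promoters. The TFCP2L1 word stood in 2.83%, 4.66% and 3.30%, the ESRRB and NR5A2 word in 3.43%, 2.75% and 2.96%, OTX in 5.25%, 4.44% and 5.33%, TCF and LEF in 2.52%, 1.48% and 2.36%, and the E-box in 10.1%, 10.3% and 10.7%. These are matches of letters and no measure of binding, and the differences between groups were not tested.

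RNA of the LIF pathway fell at several levels. Of 15 tested members, 10 fell and 2 rose 2-fold, with a median of -1.18. Over all tested genes 10.7% fell and 11.5% rose by that much, and the rises lie near the latter share. The receptor subunits Lifr (-2.72) and Il6st (-1.83) and the kinases Jak1 (-1.15), Jak2 (-1.18) and Tyk2 (-1.08) fell, as did Stat3, its feedback inhibitor Socs3, Junb (-1.25), and Tfcp2l1 and Klf4, which the naive list holds too. Stat3 ran over 55.1 to 124.1 with a median of 94.8 in ESCs and 3.58 to 23.1 with a median of 7.72 in EpiLCs (log2 change -3.29, SE 0.12, adjusted p = 3.3e-24). Socs3 ran over 40.95 to 176 with a median of 97.5 and then 1.88 to 12.9 with a median of 5.28 (-3.83, SE 0.12, adjusted p = 9.8e-26). Neither overlapped between states. The 2 that rose were Socs2 (1.17), another inhibitor of cytokine signalling, and Gfra1 (1.65).

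Core pluripotency genes split. Of 16 tested, 4 rose and 5 fell 2-fold, with a median of -0.26, beside 11.5% and 10.7% of all tested genes. Pou5f1, the central factor of both states, ran over 621 to 936 with a median of 786 in ESCs and over 399 to 1885 with a median of 957 in EpiLCs. The EpiLC range enclosed the ESC range, with BXD64 lowest and BXD86 highest, and the change was 0.32 (SE 0.088, adjusted p = 0.0012), higher in 25 lines and lower in 8. It was 0.19 without Gm42418 and Lars2 in the totals. Sox2, its partner, fell from a median of 316 to 66.8 (-2.18, SE 0.13, adjusted p = 1.5e-17). The Nodal antagonist Lefty2 (-3.84), the ligand Fgf4 (-2.08), the Nodal co-receptor Tdgf1 (-1.64) and the zinc finger factor Sall4 (-1.22) fell too. Those that rose were the RNA-binding proteins Lin28a (median 103 to 718, 2.68) and Lin28b (2.57), the adhesion molecule Epcam (2.36) and the chromatin factor Utf1 (1.72).

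Formative and primed genes rose: 20 of 28 tested were at least 2-fold higher and 1 lower, with a median of 1.63. Among all tested genes 11.5% were 2-fold higher and 10.7% lower, with a median of 0.11. Without the 6 lines that stood apart the counts were 19 and 2. After Pou3f1 and Pim2 came Sox3 (3.89) and Dnmt3a. Otx2, a homeobox factor of the epiblast, ran over 0.0939 to 35.3 with a median of 5.69 in ESCs and 6.41 to 82.7 with a median of 36.3 in EpiLCs. The ranges overlapped, and the EpiLC level was lowest in BXD84, but the gene was higher in 32 of 33 lines (2.28, SE 0.20, adjusted p = 9.4e-13). Lef1, a mediator of Wnt signalling, was higher in 28 lines (1.05, SE 0.17, adjusted p = 1.2e-06). The list's 2-fold fall was Bcat1 (-1.93), an enzyme of branched-chain amino acid metabolism. Fgf5, the classical EpiLC marker, was listed in the EpiLC table only, at 7.36 to 67.1 with a median of 27.0, and Wnt8a likewise at a median of 22.04.

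ERK-responsive genes rose in 9 of 17 cases and fell 2-fold in 1, with a median of 1.16. Dusp6, a phosphatase that ERK signalling induces and that dephosphorylates ERK, ran over 4.73 to 22.6 with a median of 12.1 in ESCs and 94.5 to 294 with a median of 217 in EpiLCs (SE 0.092, adjusted p = 2.2e-29). The phosphatase Dusp4 (3.54) and the immediate early gene Egr1 (3.49) also rose without overlap, and the feedback inhibitor Spry4 rose in 31 lines (2.64). Ier3 fell (-1.77); without the 6 lines that stood apart, 2 members were 2-fold lower. Among 7 ligands and receptors, 3 rose, the receptor Fgfr2 (2.46) and the ligands Fgf15 (1.28) and Fgf13 (1.03), while Fgf4, the main FGF of ESCs, fell from a median of 279 to 63.9 (-2.08). Fgf13 missed the 2-fold limit without the 5 lines (0.92) and without Gm42418 and Lars2 in the totals (0.94), which left 2 rises in either case. Of 17 Nodal and Activin genes, 4 fell 2-fold: Lefty2, Tdgf1, the inhibitory Smad7 (-3.20) and the proprotein convertase Pcsk6 (-2.76). The 2 that rose were Foxh1 (1.42), the partner of Smad2, and Skil (1.31), a share near the 11.5% over all genes, where 10.7% fell. Among 8 Wnt genes, Myc (2.39) and Lef1 rose and Axin2 fell (-1.32); without the 5 lines Lef1 missed the 2-fold limit at 0.99, which left 1 higher, and 2 were lower.

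DNA methylation genes moved in both directions, 4 of 15 higher and 2 lower by 2-fold (median 0.12). Over all tested genes 11.5% were higher and 10.7% lower, and the falls lie near the latter share. The de novo methyltransferase Dnmt3a ran over 21.2 to 124.5 with a median of 53.4 in ESCs and 410.3 to 1084 with a median of 684 in EpiLCs (3.71, SE 0.13, adjusted p = 9.7e-25). Dnmt3b ran over 61.8 to 253 with a median of 130.5 and then 546 to 2143 with a median of 885 (2.87, SE 0.10, adjusted p = 2.9e-24). Both rose in every line without overlap. Tet3 (1.30), a 5-methylcytosine dioxygenase, and the glycosylase Tdg (1.17) rose as well, while the dioxygenase Tet2 fell from a median of 105 to 13.0 (-2.98) and Zfp57, a zinc finger protein that protects imprints, fell by 1.53 on the log2 scale.

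Of 29 imprinted genes, 11 rose and 5 fell 2-fold, with a median of 0.62. The counts of this paragraph stand beside 11.5% higher and 10.7% lower over all tested genes. Meg3 (median 10.1 to 143, 3.75) and Rian (2.90), noncoding RNAs of the maternally expressed cluster on chromosome 12, rose without overlap, as did the paternally expressed Nnat (3.38) and Mest (2.87). The largest fall was Plagl1, a zinc finger gene (median 52.5 to 1.86, -4.03), followed by Igf2 (-1.63), Cd81 (-1.59) and Igf2r (-1.31). Allele-specific levels were not measured. Among 11 germline genes, 4 rose, the homeobox gene Rhox5 (2.21), the piRNA factor Mael (2.20), the helicase Ddx4 (1.89) and the meiotic Sycp3 (1.57), and 2 fell, Tuba3a (-1.65) and Dazl (-1.397). 6 further germline genes, among them Tdrd1 and Sycp1, were listed in the EpiLC table only. The 5 tested genes of the 2-cell-like list belong to the Zscan4 family, whose near-identical copies make each value uncertain, and all stayed under 2-fold (median 0.30).

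Adhesion genes moved in both directions: 4 of 18 rose and 5 fell 2-fold (median 0.19). Among all tested genes 11.5% rose and 10.7% fell by that much. The protocadherin Pcdh1, the tight junction claudins Cldn7 (3.56) and Cldn6 (1.84) and Epcam rose, as did the simple-epithelial keratins Krt8 (2.34) and Krt18 (2.65) of the trophectoderm list. Fibronectin, Fn1, fell from a median of 1825 to 149.7 (-3.70), as did the integrin chains Itgav (-2.54) and Itga5 (-2.10), the intermediate filament gene Vim (-2.29) and the laminin chain Lamc1 (-2.08). Over ESC libraries, rho with the fibroblast marker sum was 0.16 for Fn1 (adjusted permutation p = 0.53) and 0.35 for Itgav (adjusted permutation p = 0.087). It was 0.82 for Vim and 0.72 for Itga5, with adjusted permutation p of 2.3e-05 and 4.0e-05. In EpiLC libraries rho was 0.37 for Fn1 (adjusted permutation p = 0.0497), 0.64 for Itgav (adjusted permutation p = 1.3e-04), 0.65 for Vim (adjusted permutation p = 3.0e-04) and 0.57 for Itga5 (adjusted permutation p = 0.001). Over ESC libraries Pearson's r without the 2 lines farthest from the median was 0.0764, 0.257, 0.805 and 0.722 for Fn1, Itgav, Vim and Itga5, and over EpiLC libraries 0.316, 0.620, 0.656 and 0.618.

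Fibroblast and macrophage genes were lower in EpiLCs or listed in the ESC table only, and markers of other lineages moved in part. Of 18 tested fibroblast markers, 15 fell and 1, Dcn (1.34), rose 2-fold (median -2.95). For this and the lists below, 10.7% of all tested genes fell and 11.5% rose by 2-fold. Genes of macrophages, a list chosen after their values were seen, were listed almost only in the ESC table: 12 of 12 there, with Lyz2 at 53.5 to 302 and Gpnmb at 59.4 to 336, and 2 of 12, Laptm5 and Cd68, in the EpiLC table. Their summed level was 359 to 1267 in ESC libraries and 3.59 to 29.1 in EpiLC libraries, and its part in other changes was not tested. Laptm5 fell from a median of 160.2 to 6.72 (-4.29). Of 8 primitive endoderm genes, 5 fell 2-fold, the matrix genes Lama1 (-2.79), Sparc (-2.25), Col4a2 (-2.17) and Col4a1 (-1.05) and the receptor Pdgfra (-1.25), which fibroblasts express too. The defining Gata6, Sox17 and Sox7 were listed in neither table. The trophectoderm list had 3 rises, all keratins, and 3 falls, led by Tead4 (-3.31), with 5 falls when Gm42418 and Lars2 were left out of the totals. Its defining Cdx2 was listed in the ESC table only (median 1.34) and Elf5 in neither. Of 16 mesendoderm genes 2 could be tested, and Eomes fell (-1.22); T and Mixl1 were listed in neither table. In the neuroectoderm list, 2 of 6 rose, Ncan (2.09) and Map2 (1.68), and Pax6 was listed in the EpiLC table only (median 2.73).

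Glycolysis genes fell more often than they rose, and the other metabolic, stress and chromatin lists had few 2-fold changes, to be read beside the 11.5% higher and 10.7% lower of all tested genes. Of 22 glycolysis genes, 6 fell and 2 rose 2-fold (median -0.47): the phosphofructokinase Pfkp (median 289 to 17.5, -3.82), the glucose transporter Slc2a3 (-2.92) and the hexokinases Hk1 (-2.38) and Hk2 (-1.405) fell, and the pyruvate dehydrogenase kinase Pdk1 (2.42) and lactate transporter Slc16a3 (1.36) rose. Among 26 respiratory chain genes, 1, Cycs (1.33), passed the 2-fold limit and 0 fell by that much (median 0.32). For p53 targets the counts were 1 higher, Pmaip1 (1.74), and 3 lower of 21, led by the cell-cycle inhibitor Cdkn1a (-2.30), and 1 lower without the 5 lines, counts that do not stand out from the shares over all genes. Of 21 ATF4 and unfolded protein response genes, 3 rose, among them Atf4 itself (1.19), and asparagine synthetase, Asns, fell (-2.96). In the KRAB silencing list 4 of 22 rose, led by Pphln1 (1.60), Suv39h1 (1.53) and Cbx1 (1.53), and 1, Zfp568 (-1.19), fell. The rises were 3 without Gm42418 and Lars2 in the totals. Of 19 Polycomb genes Phf19 rose (1.48) and Suz12 fell (-1.37) by 2-fold, 1 in each direction and below the shares over all genes.

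**Figure D3:**
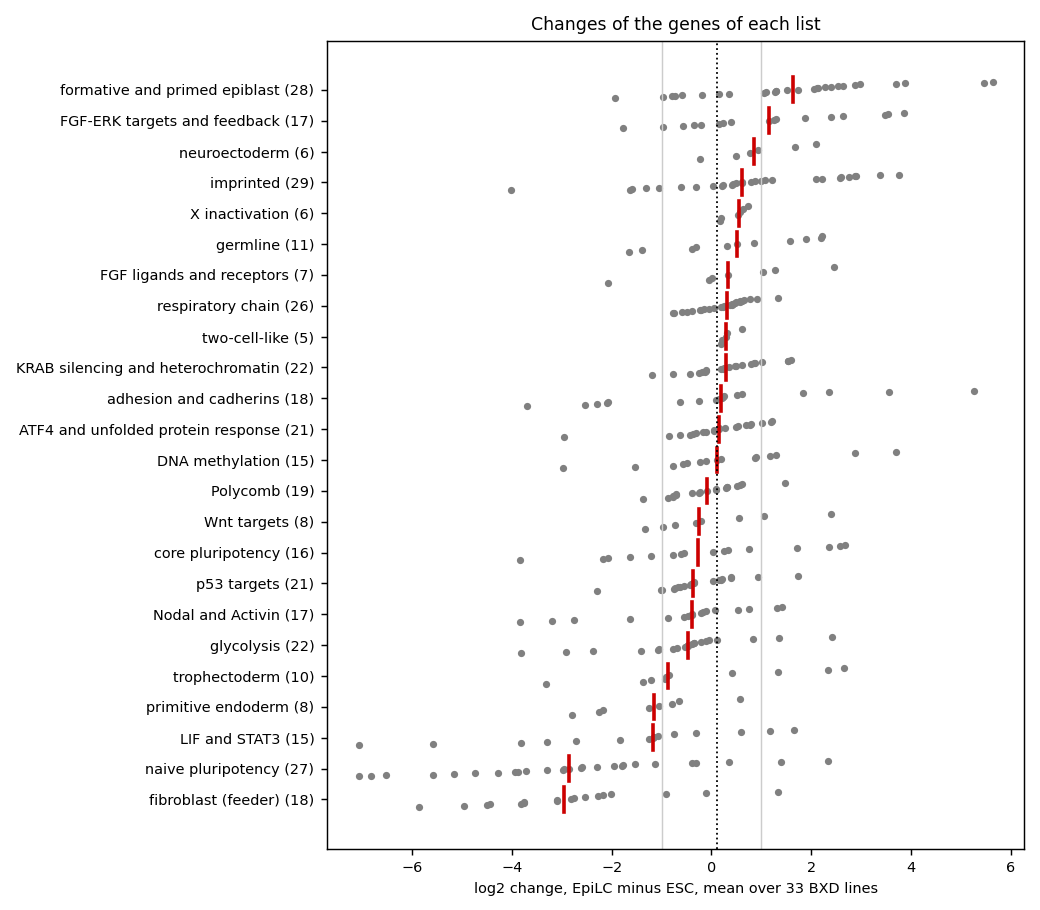
Log2 change, EpiLC minus ESC, mean over 33 BXD lines, of each tested gene (grey points) in lists with at least 5 tested genes. Red bars mark list medians, the dotted line the median of all tested genes and the grey lines a 2-fold change. The formative list lies highest and the naive and fibroblast lists lowest, with single members of most lists on either side.

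None of the 6 X inactivation genes tested passed the 2-fold limit (median 0.56), and 5 were higher by the adjusted p alone (limma). Of all tested genes, 47% were higher by the adjusted p alone, 11.5% were 2-fold higher and 10.7% 2-fold lower. Xist, the RNA that coats the inactive X, ran from 0.813 to 3.96 in ESCs and from 0.352 to 60.0 in EpiLCs, with medians of 1.91 and 1.93 (log2 change 0.53, SE 0.21, adjusted p = 0.022). The 5 highest EpiLC levels were 60.0 in BXD74, 49.7 in BXD86, 23.1 in BXD63, 20.3 in BXD44 and 16.0 in BXD85. Of these lines, BXD74, BXD86, BXD63 and BXD85 were among the 8 with Ddx3y below 10. The other 4 of these 8 had EpiLC Xist levels of 2.34 (BXD48), 5.37 (BXD62), 1.78 (BXD66) and 1.44 (BXD95), and BXD44 had Ddx3y at 34.6 in EpiLCs. In those 8 lines Ddx3y was 1.52 to 6.46 in ESC libraries and 0.0270 to 0.147 in EpiLC libraries, apart from BXD62 with 2.78, the line with the highest EpiLC fibroblast sum.

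980 genes stood in the EpiLC table only and 975 in the ESC table only. Why a table leaves out a gene is not stated, so these genes have levels and no change. The EpiLC-only gene with the highest mean was the ephrin receptor Epha1, at 28.7 to 190.0 (median 93.2), followed by the pseudogene Rpl23a-ps3 (median 44.6), Jph4 (median 50.7), Greb1l (median 40.4) and Vrtn (median 42.8). Among ESC-only genes the highest after Gpnmb and Lyz2 were Col12a1, a collagen (median 64.7), Tcl1 and Prdm14.

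Lines differed in the size of their measured changes, and the part of the length trend in this was not tested. Among genes with a mean of at least 5 in either state, wide spreads of the change were found in Eif4a-ps4 (SD 2.57 on the log2 scale), Crxos (2.44), Gm15501 (2.33), Gm4613 (2.21), Gm10359 and Gm12671, which share identical values (2.20), Gm4204 (1.89), Has2 (1.87) and Col1a1 (1.84). Several of these are pseudogenes or near-identical copies, whose values are uncertain because reads can be split between copies. Crxos, a homeobox gene, ran over 0.431 to 100.5 with a median of 4.83 in ESCs and changed from -6.09 (BXD75) to 1.32 (BXD45). The hyaluronan synthase Has2 changed from -4.16 in BXD90, the ESC library with the highest fibroblast sum, to 2.86 in BXD124. In the naive network, Tfcp2l1 fell by 4.70 on the log2 scale in BXD125 and by 8.72 in BXD124, and Esrrb by 3.04 in BXD84 and by 7.32 in BXD71.

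Variation between lines was wider in EpiLCs for more genes than in ESCs. The variance over lines was larger in EpiLCs for 3680 genes (31.3%) and larger in ESCs for 920 (7.83%) by a two-sided permutation test that swapped the states within lines (100000 swaps, adjusted p under 0.05). The median SD over lines was 0.296 in ESCs and 0.390 in EpiLCs on the log2 scale. With the transcript length trend removed, the counts were 2496 and 1233, with median SDs of 0.289 and 0.332, and 2482 genes were called in the same direction both ways. Without the 5 lines the counts were 2648 and 762. The 5 largest gains of variance were in Gm10359, Gm12671, Eif4a-ps4, Gm15501 and Rpl38-ps2, which are copies or pseudogenes. The 5 largest losses were in Crxos (SD 2.36 in ESCs and 0.656 in EpiLCs, adjusted permutation p = 1.9e-04), Gm4204, Ubd, Gm28900 and Pigp. Ubd, a ubiquitin-like gene, ran over 0 to 41.5 with a median of 14.7 in ESCs and 0 to 4.51 with a median of 0.896 in EpiLCs.

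Whether lines that kept more naive RNA had less formative RNA was examined for 36 pairs of 6 naive and 6 formative genes within the EpiLC libraries. 1 pair passed: Zfp42 with Pou3f1, with Spearman's rho of -0.73 over 33 lines (permutation p of 1e-05, the smallest possible, adjusted 3.6e-04) and Pearson's r of -0.67 (permutation p = 6.0e-05). Pearson's r was -0.65 without the 2 lines farthest from the Zfp42 median, and rho was -0.72 without the 5 lines. With the length trend removed rho was -0.61 (adjusted permutation p = 0.01). That 1 of 36 is 2.78%. Zfp42 in EpiLCs ran from 20.9 in BXD95, where Pou3f1 was highest at 329, to 82.5 in BXD74. The next lowest was Tfcp2l1 with Otx2, with rho -0.49 and Pearson's r -0.43, or -0.35 without 2 lines. Its adjusted permutation p of 0.072 did not pass at this scaling. Under median-ratio and under quantile scaling, 1 Tfcp2l1 pair passed. Esrrb with Otx2 had rho -0.45 and Pearson's r -0.46 (adjusted permutation p = 0.098). Zfp42 with Dnmt3b had rho -0.44 and Pearson's r -0.44 (adjusted permutation p = 0.11), which passed without the 5 lines at -0.63 (adjusted permutation p = 0.0097) and was -0.23 with the length trend removed.

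**Figure D4:**
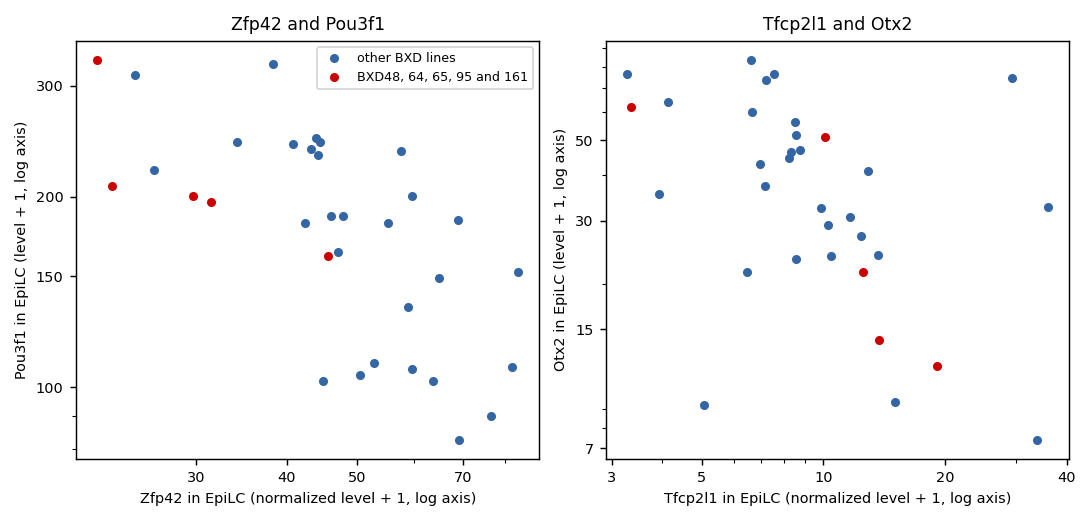
Levels + 1 in EpiLC libraries on log axes, 1 point per BXD line. Left, Pou3f1 is lower in lines with more Zfp42. Right, Otx2 against Tfcp2l1, a pair that did not pass the test with libraries scaled to their totals. The 5 lines in red did not match their own ESC library over all genes. Neither did BXD45, BXD49, BXD62, BXD69, BXD81 and BXD124, which are drawn in blue.

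For some genes a line kept its rank through the transition. The ESC and EpiLC levels of the 33 lines correlated positively for 1026 genes (8.73%) and negatively for 19 (0.162%) at an adjusted permutation p under 0.05 (two-sided, 100000 shuffles of the lines), with a median rho of 0.112 over all tested genes. Without the 5 lines the counts were 1194 and 64, without the 6 they were 842 and 14, and with the length trend removed 1190 and 42, 866 genes being called both ways. Stard3nl, a late endosomal membrane protein gene, was among the 10 with the largest rho. Its levels ran over 2.23 to 55.2 with a median of 16.4 in ESCs and 3.44 to 88.6 with a median of 27.0 in EpiLCs, with BXD74 lowest in both. The lines fell into separate clusters, so no single correlation is given. The parental ESC lines were at 49.9, 48.9 and 50.3 in B6 and 1.92, 3.77 and 2.39 in D2. Their EpiLC levels were 32.1, 42.5 and 33.9 in B6, inside the BXD range, and 5.24, 5.72 and 4.12 in D2, near its lower end. Tent5c, a poly(A) polymerase gene, was clustered as well, from 2.51 to 24.4 in ESCs and 1.28 to 20.5 in EpiLCs, with D2 above B6 in both states (29.1, 29.4 and 29.2 against 1.77, 2.62 and 2.48 in EpiLCs).

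Some genes that changed with the state also kept line ranks. Car2, a carbonic anhydrase, rose in all lines from a median of 3.90 to 33.3 (3.09), with BXD63 lowest and BXD74 highest in both states (rho 0.86, Pearson's r 0.82, permutation p = 1.0e-05, and 0.78 without the 2 lines farthest from the ESC median, adjusted permutation p of rho = 4.9e-04). Nnat and Pmaip1 were chosen for this after their values were seen. Imprinted Nnat rose in all lines (rho 0.85, Pearson's r 0.87, permutation p = 1.0e-05, and 0.85 without the 2 lines farthest from the ESC median, adjusted permutation p of rho = 4.9e-04). The p53 target Pmaip1, which encodes the NOXA protein, rose in all lines (rho 0.81, Pearson's r 0.76, permutation p = 1.0e-05, and 0.76 without the 2 lines farthest from the ESC median, adjusted permutation p of rho = 4.9e-04). In EpiLCs it stood at 449.7, 449 and 476 in B6 and 81.9, 95.4 and 54.1 in D2. Parental Nnat levels overlapped in ESCs, at 3.42, 3.56 and 4.96 in B6 and 3.63, 3.12 and 2.72 in D2. They were apart in EpiLCs, at 21.0, 25.3 and 28.5 in B6 and 93.2, 109 and 89.7 in D2. The others of the 10 largest rho were Gm47283, Gm30948, Serpina3m, Efhc2, 4933427J07Rik, Gm38246 and a gene with no symbol, ENSMUSG00000081291, and their correlations are not printed. Serpina3m and the Gm genes belong to families or loci with near copies and are uncertain. All 5 tested Zscan4 genes were called, with a median rho of 0.76, a family of near-identical copies at low levels. The 5 most negative were Wdr43 (-0.65), a ribosome biogenesis factor, Lypla1 (-0.63), the potassium channel Kcnk5 (-0.61), Tyw3 (-0.60) and the ubiquitin ligase Rnf111 (-0.54), with adjusted permutation p from 0.0024 to 0.022 and Pearson's r from -0.66 to -0.42. With the length trend removed their rho was -0.23, -0.66, -0.69, -0.15 and -0.43.

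**Figure D5:**
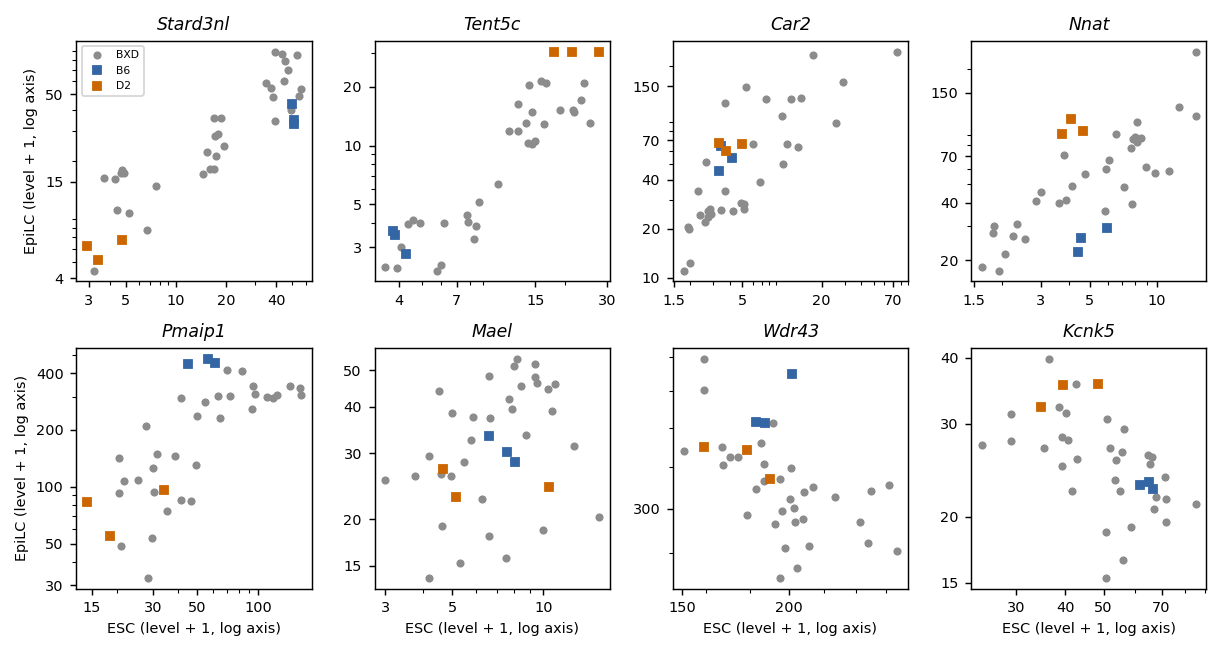
Level + 1 in ESCs (x axis) and EpiLCs (y axis), both on log axes, for 8 genes, 1 point per line: BXD in grey, B6 in blue and D2 in orange. For Stard3nl, Tent5c, Car2, Nnat and Pmaip1 lines that are high in ESCs are high in EpiLCs; Mael is spread, and Wdr43 and Kcnk5 slope downwards.

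The BXD change was set against the parental change, taken as the mean of the B6 and D2 changes with each parental line as its own block. Of the 2602 genes with a 2-fold BXD change, 2491 moved in the same direction in the means of both parents. The size of the change differed for 2052 genes (17.5%), 1029 with the BXD change above (8.75%) and 1023 below the parental one (8.7%). With 3 lines a parent this count was unsteady: it fell to between 846 and 1631 when 1 parental line was left out, and was 3419 without the 5 BXD lines and 3340 without the 6. Myc, which encodes a growth-promoting transcription factor, rose by 2.39 in BXD lines and by 4.70, 2.97 and 3.77 in the B6 lines and 3.92, 3.75 and 5.81 in the D2 lines, a difference of -1.76 (SE 0.38, adjusted p = 0.0022, limma). Its EpiLC level was 29.6 to 109.8 in BXD lines and 88.1, 71.2 and 105 in B6 lines, inside the BXD range, while the D2 lines, at 177, 186 and 167, lay above it. Myc was chosen after its values were seen. Pou5f1 rose in BXD lines and changed by -0.21, -0.17 and -0.35 in B6 and -0.05, -0.08 and -0.17 in D2 lines, but the difference, 0.49 (SE 0.21), did not pass (adjusted p = 0.099). In the naive list 2 of 27 genes differed, in the formative list 4 of 28, and in the respiratory chain list 14 of 26. The BXD and parental libraries of a state stand in the same table, and whether they were made together is not stated.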

How the data were processed

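RNA was extracted from 1000000 cells per culture, per the labels' protocols. The submitters' processing notes name HISAT2 2.0.5 and the mm10 genome. The counting tool, annotation, strand and normalization: not given in sources used here. The authors deposited 1 table per state of a normalized signal per gene, with library totals from 902250 to 1115270 in ESCs and 875065 to 1230020 in EpiLCs. Values are not whole numbers, so the depth is unknown and the precision rests on the number of lines. 0 columns lacked a sample. Symbols came from GENCODE vM21 for 11698 of 11754 genes.

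Libraries were rescaled to 1000000 over shared genes, log2(level + 1) was tested with limma 3.58.1 in R 4.3.3 (line block, trended robust variance, mean level at least 0.5), and spread and correlations with permutation tests in Python 3.11.15. Each was first tested on simulated data. Pairing rests on the line named in the labels: a line's ESC and EpiLC libraries matched best in 33 of 33 lines over 105 genes that differ between parents. The limma p-values set a mean change against its variation between lines, where genotype, culture and library cannot be told apart. The permutation p-values test a difference of variance or a correlation over lines. Length is that of the longest GENCODE transcript.

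Named genes were the 12 largest rises and falls shared by all lines, up to 4 called members per list and direction, the 10 most variable changes, the 10 largest differences from parents, the 15 extreme correlations, the 10 extreme variance changes, and 17 marker genes; further list members named were chosen after their values were seen, and some genes that met these rules are not reported here. Members, rules and the 25 lists were chosen with earlier results of these data known. Alternatives were other scalings, pseudocounts of 0.1 and 5, no filter, other limma settings, a further ESC table, and lines left out. Leaving Gm42418 and Lars2 out of the totals, removing the length trend, leaving out the 6 lines and each parental line, the genes that differ between parents, the fibroblast correlations and the macrophage list were chosen after seeing the data.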

Additional observations from a re-analysis of the deposited data

Results flagged for a closer look

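These 10 genes had the largest differences between the BXD and the parental change among those that passed (limma, adjusted p under 0.05), 5 in each direction. Oasl2, an interferon-stimulated gene, changed by -0.30 in BXD lines, -3.66, -4.01 and -4.02 in B6 lines and -2.24, -1.20 and -1.30 in D2 lines, a difference of 2.44. Its ESC level was 0.713 to 8.79 in BXD lines and 22.04, 20.4 and 21.97 in B6 and 18.9, 12.9 and 16.8 in D2 lines, so the groups were apart before the transition. Gemin4, a component of the SMN complex, changed by -0.92 in BXD lines and rose by 0.84, 0.30 and 1.51 in B6 and 1.54, 0.70 and 1.86 in D2 lines, a difference of -2.05. The other 8 are predicted genes or pseudogenes whose reads can be shared with copies: the BXD change was higher for Gm15590 (3.12), Gm12669 (2.62), Rpl3-ps1 (2.55) and Gm13841 (2.40), and lower for Gm20721 (-2.56), Gm2541 (-2.31), Gm28901 (-2.02) and Rab11b-ps2 (-2.02). The parents themselves differed for each of these predicted genes with a higher BXD change, so the parental mean joins unlike strains. Gm13841 changed by -0.23, 0.39 and 0.00 in B6 and -5.63, -4.84 and -5.70 in D2 lines. Its BXD change, -0.26, lay between the parental means. Gm15590 changed by -0.24, 0.07 and 0.01 in B6 and -4.15, -4.20 and -4.11 in D2 lines. Rpl3-ps1 changed by 0.83, -0.75 and -0.79 in B6 and -2.98, -3.17 and -1.74 in D2 lines. Gm12669 changed by -0.70, -0.65 and 0.44 in B6 and 3.04, 2.24 and 2.22 in D2 lines. The cause of these differences was not tested. Groups of 33 and of 3 lines were too large or too small for the test of single outlying samples.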

How the results depend on the processing

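The number of genes called between states stayed within 1.5 times under every alternative run. With no replicate block it was 9581 against 9812 with the line as a block, and it moved no count of calls by more than 1.5 times. Genes 2-fold higher numbered 877 with a pseudocount of 5 against 1348. In the comparison with the parental lines 2052 genes became 846 to 1631 when 1 parental line was left out (B51 gave the lowest count, B44 the highest), 3419 without the 5 BXD lines and 3340 without the 6. With no replicate block it was 1619. Genes with a negative correlation between states rose from 19 to 29 with the values as deposited, 64 without the 5 lines and 42 with the length trend removed. The 1 naive and formative pair became 2 with median-ratio scaling, 2 without the 5 lines, 2 without the 2 lines farthest from the median and 4 with quantile scaling. Among single genes, 1878 of 1932 values of the transition under the alternatives kept their side of the limits, 42 lost the 2-fold call and 12 gained it. No sign reversed. The cause of each move was not tested. The depth is unknown, so no limit for a level of 0 is given.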
